A study of Homo sapiens with 6 samples.

Results

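The HOX genes encode homeodomain transcription factors that lie in 4 clusters, HOXA to HOXD. The 39 members described here are every gene of the table whose symbol is HOXA, HOXB, HOXC or HOXD followed by digits, among 19974 annotated genes and 26184 genes and loci in all. On GRCh38 they span chr7:27092993-27200106 (HOXA, 11 genes, short arm), chr17:48528526-48729178 (HOXB, 10 genes), chr12:53938765-54056030 (HOXC, 9 genes) and chr2:176092891-176190907 (HOXD, 9 genes). RNA from Huh7, a human hepatocellular carcinoma cell line, was sequenced after poly(A) selection in 3 libraries of the untreated parental line, Huh7 P, and 3 libraries of its lenvatinib-resistant derivative, Huh7 LR. Lenvatinib is an inhibitor of several receptor tyrosine kinases. Huh7 LR is a single line, derived from Huh7 P by raising the drug from 1 μM to 20 μM over about 10 months, and it was kept in medium with 20 μM lenvatinib, while the RNA methods do not say whether the plates taken for RNA held the drug. The p-values below therefore measure the spread between samples of 1 parental and 1 derived line.

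Along each cluster the genes lie in the order of their paralogue groups, which are numbered from the anterior end of the embryo to the posterior end. Groups 1 to 3 are called anterior here, groups 4 to 8 central and groups 9 to 13 posterior. In the embryo this order corresponds to where and when the genes are switched on. HOX proteins bind DNA with partners of the TALE class such as PBX and MEIS, Polycomb complexes keep the clusters silent, Trithorax complexes keep them active, and retinoic acid induces genes near the anterior end. Adult cells often keep part of the pattern of their tissue of origin, and tumour cells often depart from it.

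Promoter sequence from RefSeq (GRCh38.p14) was at hand for 20 of the 39 genes, in 27 windows of 250 bases before to 50 bases after a start site. These windows held a median of 22 CpG dinucleotides, against 14 over all 35116 promoters. Each motif was searched on both strands. CCAAT was present in 18 of the 27 windows and in 34.6% of all promoters. TATAAA was present in 5 windows (11.5% of all promoters), GCCATNTT in 6 (6.58%), TGATNNAT in 3 (7.4%) and AGGTCA in 0 (13.8%). Some of these windows share bases or belong to the same gene, and HOXC4 and HOXC5 have the same start window. The stretches printed here are those of HOXA13 and HOXA6, which were called higher in Huh7 LR, and of HOXA9, which lies between them and did not pass the test. They are the parts before the start site that no exon covers, on the minus strand, at chr7:27200107-27200341, chr7:27147775-27148024 and chr7:27165538-27165787. Capitals mark CCAAT, read as ATTGG on the other strand, and TATAAA.
HOXA13: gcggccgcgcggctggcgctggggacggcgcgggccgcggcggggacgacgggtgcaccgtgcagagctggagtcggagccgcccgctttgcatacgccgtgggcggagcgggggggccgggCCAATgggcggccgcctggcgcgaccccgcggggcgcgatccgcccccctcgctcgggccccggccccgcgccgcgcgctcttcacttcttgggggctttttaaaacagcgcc
HOXA6: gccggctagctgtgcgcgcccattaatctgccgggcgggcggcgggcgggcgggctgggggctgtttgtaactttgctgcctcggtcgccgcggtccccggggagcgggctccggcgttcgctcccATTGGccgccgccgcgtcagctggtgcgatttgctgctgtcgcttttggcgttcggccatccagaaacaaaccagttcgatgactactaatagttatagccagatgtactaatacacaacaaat
HOXA9: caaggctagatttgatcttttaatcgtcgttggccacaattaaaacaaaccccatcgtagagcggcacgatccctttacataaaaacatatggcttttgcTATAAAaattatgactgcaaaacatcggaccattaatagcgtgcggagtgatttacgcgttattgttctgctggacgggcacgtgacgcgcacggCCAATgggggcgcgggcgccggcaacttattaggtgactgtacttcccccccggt
All 3 stretches hold a CCAAT match, and HOXA9 alone of the 3 also holds TATAAA. Their whole windows held 44, 29 and 22 CpG dinucleotides. A match describes letters in this window and is not a measured binding site.

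The libraries held 62738937 to 71427573 counted reads in Huh7 P and 63233655 to 70768720 in Huh7 LR. At these depths a count of 0 allows up to 3 counts, or 0.042 to 0.0478 CPM (counts scaled to library size), which takes only counting error into account. Each of the 10 hepatocyte and Huh7 markers had enough reads to be tested, and their summed FPKM (fragment counts scaled to exon length and library size) was 15600 to 18800 in Huh7 P and 20700 to 21800 in Huh7 LR. Of these 10 markers 5 rose, and FGB was called higher (log2 fold change 2.49, from 175 to 984 CPM). Of 10 fibroblast markers, DCN, THY1, POSTN and FAP had 0 counts in every library, and the list summed to 1.19 to 1.46 FPKM in Huh7 P and 1.19 to 2.14 in Huh7 LR. The 3 fibroblast markers with enough reads to be tested all changed, with COL1A1 called higher (log2 fold change 1.84), PDGFRB higher (0.84) and PDGFRA called lower (-1.10). Of 5 endothelial markers, CDH5, TEK and KDR had 0 counts, PECAM1 was higher in Huh7 LR (0.64, from 44 to 68.7 CPM) and VWF was higher (2.95, under 1 CPM in both lines), and the list summed to 5.41 to 6.46 FPKM in Huh7 P and 8.96 to 9.8 in Huh7 LR. Of 8 leukocyte markers, 3 had 0 counts, HLA-DRA and TYROBP among them, although the leukocyte list, led by LYZ, summed to 37 to 41 FPKM in Huh7 P and 6.02 to 8.11 in Huh7 LR. LYZ was called lower (-2.79), and the other 2 tested, CD14 and CD74, did not pass (0.53 and 0.52). The part of these changes in the HOX values was not tested.

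HOXA was the cluster whose genes rose. Genes were compared by the quasi-likelihood test of edgeR over 17531 rows, and a gene is said to have risen or fallen at an adjusted p under 0.05 and to have been called at an adjusted p under 0.001 with a log2 fold change above 1 or below -1. Of the 39 HOX genes, 27 had enough reads to be tested. In Huh7 LR 11 of these 27 rose and 6 fell, against 23.3% and 22.4% of all rows, and 10 did not pass. Of the 11 that rose 9 were in HOXA, and the other two were HOXB3 and HOXC6. The 6 that fell were HOXB7, HOXB8, HOXB9, HOXC5, HOXC11 and HOXD8. Those called higher were HOXA3, HOXA6 and HOXA13, beside 4.43% of all rows, and those called lower were HOXB9 and HOXC5, beside 1.78%. The median log2 fold change was 0.84 over the 11 tested HOXA genes, -1.49 over 4 HOXB genes, 0.00 over 8 HOXC genes and -0.30 over 4 HOXD genes, and it was 0.00 over all rows. All 3 Huh7 LR libraries lay above all 3 Huh7 P libraries for 12 of the 27 genes and below them for 7, against 28.2% and 27.7% of all rows. Because the libraries were made from bulk RNA, more cells with a transcript and more transcript per cell cannot be told apart.

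**Figure D1:**
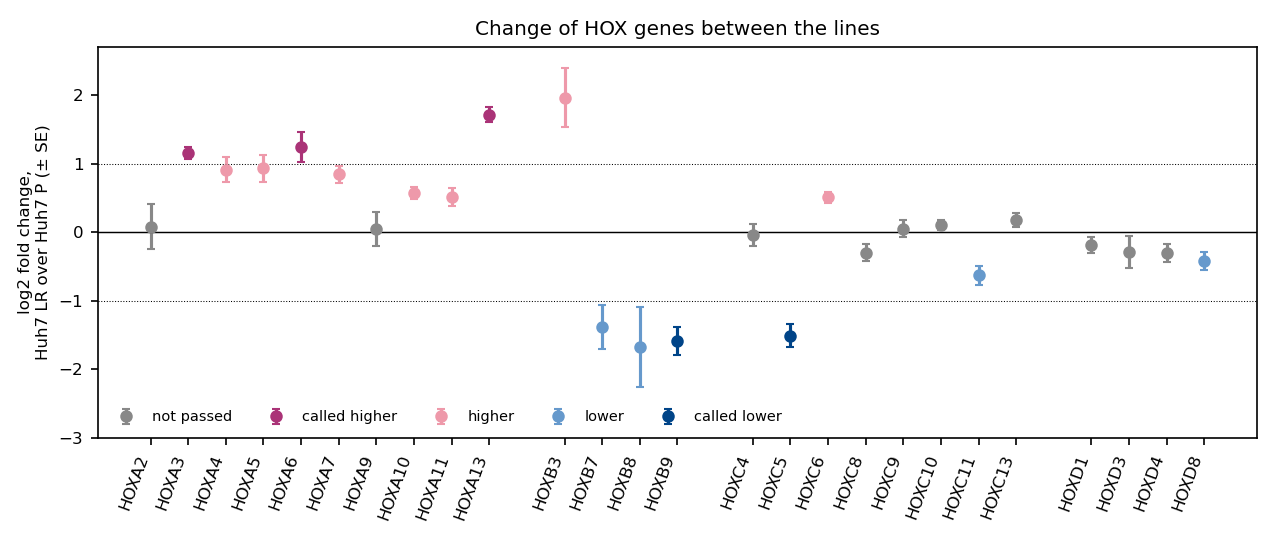
Log2 fold change (Huh7 LR over Huh7 P, ± SE) of 26 tested HOX genes, ordered along the 4 clusters. Colours separate genes that were higher, lower or did not pass at an adjusted p under 0.05 and those called beyond the dotted lines at 1 and -1. The 10 HOXA points lie between 0.04 and 1.71, and HOXB7, HOXB8 and HOXB9 lie between -1.68 and -1.39.

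Among the anterior genes of HOXA, HOXA3 changed most. HOXA3, which acts in the pharyngeal arches and the organs that form from them, was at 9.81, 10.2 and 10.6 CPM in Huh7 P and at 24.3, 23.0 and 20.9 CPM in Huh7 LR. The lines did not overlap, and the log2 fold change was 1.15 (SE 0.09, edgeR adjusted p = 4.56e-06). HOXA2, next to it on the chromosome and a gene of the hindbrain, was at 0.585 to 0.972 CPM in Huh7 P and 0.537 to 1.03 CPM in Huh7 LR. Its ranges overlapped, and the 95% confidence interval of its log2 fold change, -0.64 to 0.81, held both directions. HOXA3 shares 6.8% of its exon bases with AC004080.5 and 8.8% with AC004080.6 on its own strand. It shares 8.7% with the antisense gene HOXA-AS2 and 6.7% with HOXA-AS3, and none of these partners was analysed here.

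The 4 central HOXA genes all rose. HOXA6, a gene of the trunk, was at 1.10, 0.81 and 1.28 CPM in Huh7 P and at 2.41, 2.95 and 2.20 CPM in Huh7 LR. Every Huh7 LR library was higher than every Huh7 P library, with a log2 fold change of 1.24 (SE 0.22, edgeR adjusted p = 0.000959). That p lies just under the limit for a call, and leaving out any of the 6 libraries raised it to 0.00145 or more and ended the call, although the gene still differed. A replicate block also ended the call of HOXA6 (edgeR adjusted p = 0.00136), as did limma on log2(FPKM + 1), with a log2 fold change of 0.77. HOXA7 was at 5.36, 4.62 and 5.66 CPM in Huh7 P and at 9.53, 8.72 and 9.86 CPM in Huh7 LR. HOXA4 was at 1.67, 2.04 and 1.53 CPM in Huh7 P and at 3.15, 3.68 and 3.0 CPM in Huh7 LR. HOXA5, which is needed for the lung and respiratory tract, was at 1.69, 2.53 and 2.95 CPM in Huh7 P and at 4.10, 4.74 and 4.78 CPM in Huh7 LR. None of these 3 genes overlapped between the lines, and their log2 fold changes were 0.84 for HOXA7, 0.91 for HOXA4 and 0.93 for HOXA5 (SE 0.12, 0.18 and 0.20; edgeR adjusted p = 0.000247, 0.00173 and 0.00306). HOXA7 shares 62.5% of its exon bases with the antisense gene HOXA-AS3, HOXA6 shares 39.3% with it, and HOXA4 shares 31.0% with AC004080.6 on its own strand. The library kit does not mark strand, those partners were not analysed here, and reads from shared exons cannot be told apart.

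At the posterior end, HOXA13 showed the largest log2 fold change of the HOXA cluster. HOXA13 acts in the distal limb and the urogenital tract. It was at 4.89, 4.42 and 4.89 CPM in Huh7 P and at 14.4, 16.9 and 15.1 CPM in Huh7 LR. The lowest Huh7 LR library was far above the highest Huh7 P library, and the log2 fold change was 1.71 (SE 0.11, edgeR adjusted p = 1.27e-06), a 3.26-fold difference. HOXA10, which patterns the uterus and the lumbar spine, was at 12, 11.2 and 10.5 CPM in Huh7 P and at 16.5, 17 and 16.4 CPM in Huh7 LR. HOXA11, a gene of the forearm and the uterus, was at 4.86, 5.25 and 5.03 CPM in Huh7 P and at 6.14, 8.15 and 7.26 CPM in Huh7 LR. Both rose without overlap, by less than HOXA13, with log2 fold changes of 0.57 for HOXA10 and 0.51 for HOXA11 (SE 0.09 and 0.13; edgeR adjusted p = 0.000514 and 0.00987). HOXA11 shares 31.1% of its exon bases with the antisense gene HOXA11-AS, and HOXA10 shares 16.4% with HOXA10-AS.

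HOXA9, a gene of blood cell progenitors and of the posterior trunk, did not pass the test. It was at 0.962, 0.746 and 1.15 CPM in Huh7 P and at 0.844, 1.03 and 1.06 CPM in Huh7 LR. The lines overlapped (log2 fold change 0.04, 95% confidence interval -0.52 to 0.59, edgeR adjusted p = 0.922). The upper bound of that interval lay just above the log2 fold changes of HOXA10 and HOXA11 and below those of the other 7 HOXA genes that rose. Whether the change of HOXA9 differed from theirs was not tested. HOXA9 shares 13.1% of its exon bases with the read-through gene AC004080.3, which also overlaps HOXA10, and 13.9% with the antisense gene HOXA10-AS. With every listed gene linked by shared exons on the same strand summed, HOXA9 entered a sum with HOXA10 and its value became 0.54 (edgeR adjusted p = 0.000272). HOXA10 had 689 to 1192 counts and HOXA9 46 to 75, so that sum mostly follows HOXA10 and cannot decide the change of HOXA9.

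**Figure D2:**
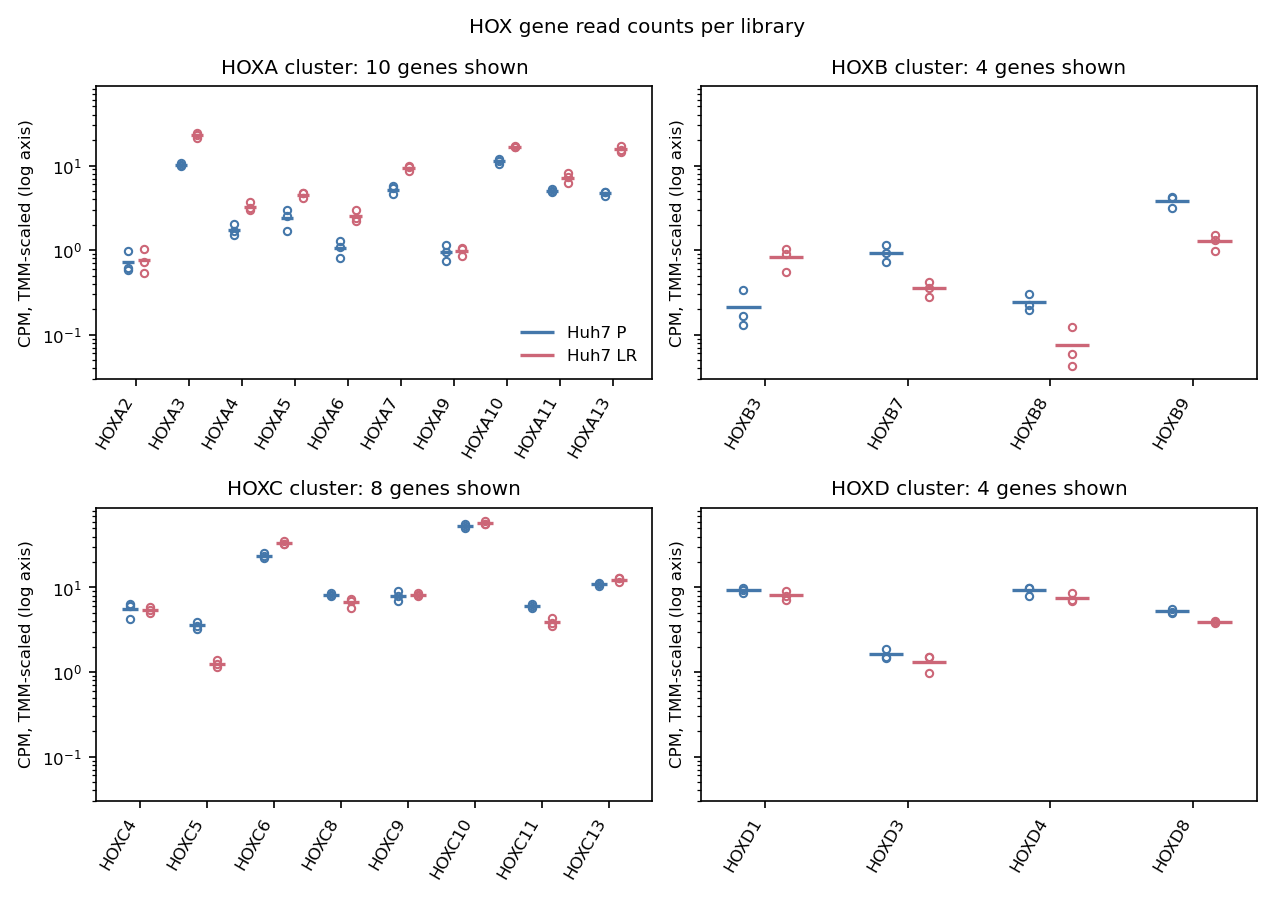
CPM of 26 tested HOX genes in each library, with a panel for each cluster and a log axis. Circles are libraries and bars are the means of 3 libraries per line. For 8 of the 10 HOXA genes drawn the Huh7 LR circles lie above the Huh7 P circles without overlap. The 7 genes drawn with the opposite order are HOXB7, HOXB8, HOXB9, HOXC5, HOXC8, HOXC11 and HOXD8.

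In HOXB, 6 of the 10 genes had at most 2 counts in any library and the 4 tested genes changed in both directions. HOXB1, HOXB2, HOXB4 and HOXB13 had 0 counts in every library, and HOXB5 and HOXB6 reached at most 2 counts, in 1 library each. HOXB9, which patterns the thoracic ribs, was at 4.15, 3.16 and 4.22 CPM in Huh7 P and at 1.52, 1.33 and 0.982 CPM in Huh7 LR. The lines did not overlap, and the log2 fold change was -1.59 (SE 0.21, edgeR adjusted p = 0.000111). Without Huh7 P replicate 1 the adjusted p of HOXB9 was 0.00101 and without Huh7 P replicate 3 it was 0.0011, which ended the call but not the difference. With limma on log2(FPKM + 1), an alternative described below, the log2 fold change of HOXB9 was -0.69 (limma adjusted p = 0.000269), also short of a call. HOXB7 was counted 82, 57 and 47 times in Huh7 P and 18, 25 and 29 times in Huh7 LR (log2 fold change -1.39, SE 0.32, edgeR adjusted p = 0.00439). HOXB8, next to it, was counted 16, 12 and 20 times in Huh7 P and 8, 3 and 4 times in Huh7 LR (log2 fold change -1.68, SE 0.58, edgeR adjusted p = 0.0345). Both fell without overlap, but HOXB8 rested on few reads and its adjusted p passed 0.05 under 8 of the alternatives, reaching 0.128.

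HOXB3 was the exception in its cluster. HOXB3, a hindbrain gene, was counted 12, 8 and 22 times in Huh7 P and 67, 63 and 38 times in Huh7 LR. All Huh7 LR libraries were higher (log2 fold change 1.96, SE 0.43, edgeR adjusted p = 0.0033), the largest log2 fold change of the 27 genes. Its FPKM remained low, at 0.0517 ± 0.0197 (SD, n = 3) in Huh7 P and 0.266 ± 0.0953 in Huh7 LR. Its exons overlap those of HOXB4, which had 0 counts, and of HOXB6, which had at most 2. HOXB3 also shares 5.0% of its exon bases with the antisense gene HOXB-AS1 and 1.0% with HOXB-AS3, which were not analysed here.

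HOXC was the most expressed cluster, and most of its genes did not pass the test. HOXC10, which specifies lumbar motor neurons, was at 56.7, 53.6 and 50.6 CPM in Huh7 P and at 60.7, 55.8 and 55.6 CPM in Huh7 LR. Its ranges overlapped (log2 fold change 0.10, 95% confidence interval -0.07 to 0.26, edgeR adjusted p = 0.313). HOXC6, a gene of the thoracic trunk, was at 25.4, 23.3 and 22.5 CPM in Huh7 P and at 32.9, 35.9 and 32.5 CPM in Huh7 LR. It rose without overlap, with a log2 fold change of 0.51 (SE 0.08, edgeR adjusted p = 0.000467). HOXC6 shares 13.7% of its exon bases with HOXC4, so that reads could be split between them. HOXC4 itself was at 6.12, 4.28 and 6.35 CPM in Huh7 P and at 5.02, 5.81 and 5.42 CPM in Huh7 LR (log2 fold change -0.04, 95% confidence interval -0.40 to 0.31).

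HOXC5 and HOXC11 fell. HOXC5 was at 3.53, 3.21 and 3.95 CPM in Huh7 P and at 1.37, 1.24 and 1.14 CPM in Huh7 LR. The lines were far apart, with a log2 fold change of -1.51 (SE 0.17, edgeR adjusted p = 4.72e-05). With limma on log2(FPKM + 1) the value was -0.77 (limma adjusted p = 6.68e-05), short of a call. HOXC5 shares 33.8% of its exon bases with the read-through gene AC012531.3, which also overlaps HOXC10 and was counted 40, 32 and 5 times in Huh7 P and 4, 44 and 62 times in Huh7 LR. With that gene's counts added, HOXC5 was at 3.94 ± 0.19 (SD, n = 3) and 1.78 ± 0.322 CPM in the parental and resistant lines, and the log2 fold change was -1.14 (edgeR adjusted p = 0.000326). HOXC5 shares a larger part, 59.9%, with a processed transcript on its own strand that was not analysed here, so that sum does not cover all of its shared exon bases. When every listed gene linked by shared exons was summed, HOXC5 entered a sum with HOXC10 and its value became 0.04 (edgeR adjusted p = 0.656). HOXC10 had 3307 to 4070 counts and HOXC5 78 to 258, so that sum mostly follows HOXC10 and cannot decide the change of HOXC5. HOXC11, a gene of the hindlimb, was at 5.77, 5.98 and 6.39 CPM in Huh7 P and at 4.40, 3.80 and 3.52 CPM in Huh7 LR, without overlap (log2 fold change -0.63, SE 0.14, edgeR adjusted p = 0.00302).

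The other tested HOXC genes did not pass. HOXC8, of the brachial region, was at 7.94 to 8.54 CPM in Huh7 P and 5.75 to 7.31 CPM in Huh7 LR, and HOXC13, a gene of hair and nail, was at 10.5 to 11.4 CPM in Huh7 P and 11.7 to 12.8 CPM in Huh7 LR. Neither overlapped between the lines and neither passed the test (log2 fold changes -0.30 and 0.18; edgeR adjusted p = 0.0715 and 0.154). HOXC9, of the thoracic region, overlapped between the lines (log2 fold change 0.05, 95% confidence interval -0.22 to 0.32). HOXC12 was not tested and had at most 10 counts.

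In HOXD, the genes with enough reads to be tested were HOXD1, HOXD3, HOXD4 and HOXD8, all with negative log2 fold changes. HOXD8 was at 5.17, 4.98 and 5.61 CPM in Huh7 P and at 3.84, 3.88 and 4.05 CPM in Huh7 LR. The lines did not overlap, and the log2 fold change was -0.42 (SE 0.13, edgeR adjusted p = 0.0189). Without Huh7 P replicate 3 the adjusted p was 0.0685. HOXD4, a hindbrain gene, was at 9.88, 9.98 and 7.95 CPM in Huh7 P and at 7.01, 7.04 and 8.49 CPM in Huh7 LR, and 1 Huh7 LR library lay within the Huh7 P range. Its log2 fold change was -0.30 (95% confidence interval -0.60 to -0.01, edgeR adjusted p = 0.0832), while those of HOXD1 and HOXD3 were -0.19 and -0.29 with overlapping libraries (edgeR adjusted p = 0.235 and 0.343). HOXD1 shares 50.1% of its exon bases with AC009336.3 on the other strand, which was not analysed here. The read-through gene AC009336.2 shares 80.5% of the exon bases of HOXD4 and 62.2% of those of HOXD3, and its own log2 fold change was 0.06 (edgeR adjusted p = 0.682). With its counts added, the log2 fold change was -0.07 for HOXD4 (edgeR adjusted p = 0.571) and 0.03 for HOXD3 (edgeR adjusted p = 0.838). HOXD11 and HOXD12 had 0 counts, HOXD13, the digit gene at the end of the cluster, had at most 2, HOXD10 at most 6 and HOXD9 at most 10.

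On the authors' FPKM, which allows levels to be compared between genes, HOXC made up most of the HOX signal. The summed FPKM of HOXC was 56.8 ± 3.35 (SD, n = 3) in Huh7 P and 61.2 ± 0.484 in Huh7 LR. HOXA was at 19.9, 20.0 and 20.6 FPKM in Huh7 P and at 39.2, 39.6 and 37.2 FPKM in Huh7 LR, a ratio of 1.92, and its share of all HOX FPKM was 21.6% in Huh7 P and 34.4% in Huh7 LR. The libraries of the lines did not overlap for any cluster, with Huh7 LR higher for HOXA and, by a narrow gap, for HOXC, and lower for HOXB and HOXD. HOXB was at 2.16 ± 0.286 FPKM in Huh7 P and 1.0 ± 0.159 in Huh7 LR (ratio 0.464), and HOXD was at 14.0 ± 0.802 and 11.7 ± 0.633 (ratio 0.832). No test was run on these sums. Over all 39 genes the sum was 93.2 ± 3.82 FPKM in Huh7 P and 113 ± 1.44 in Huh7 LR.

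**Figure D3:**
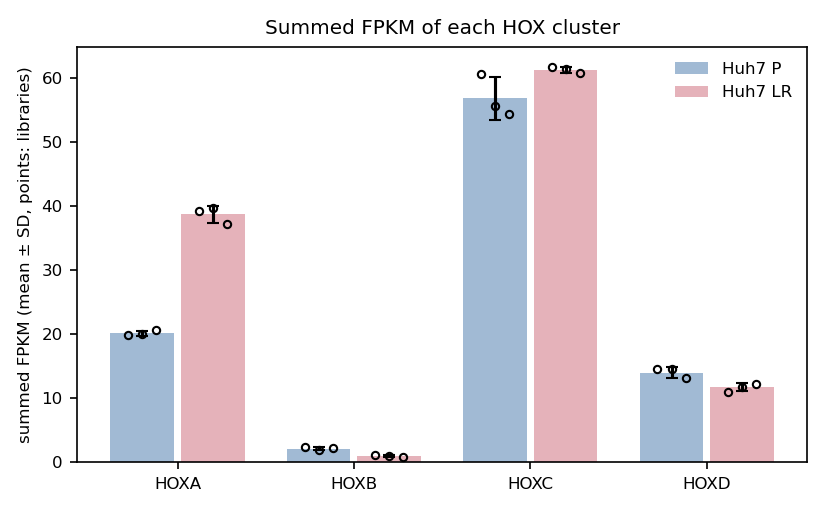
Summed FPKM of the genes of each HOX cluster, as the mean (bars, from 0) ± SD of 3 libraries per line, with a circle for each library. HOXA is the cluster in which the bar for Huh7 LR (38.7) stands well above that for Huh7 P (20.1).

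Among all HOX genes, genes of each of the 4 clusters changed rank, while HOXD4, HOXD1, HOXD8 and HOXD3 kept their order to each other. HOXC10 had the highest FPKM in both lines, with 28.6% of all HOX FPKM in Huh7 P and 25.5% in Huh7 LR, and HOXC6 was next in both, at 10.5 and 14.4 FPKM. These levels did not overlap with each other or with the gene that followed. HOXA3 was ninth in Huh7 P, at 3.51 ± 0.155 FPKM, where its range overlapped that of HOXD8, and the third in Huh7 LR, at 8.89 ± 1.44 FPKM, where its range overlapped that of HOXA10. HOXA13 moved from rank 21 (0.862 FPKM) to rank 14 (2.88 FPKM). In the other direction HOXD8 moved from rank 10 to rank 16, HOXC5 from 15 to 20, HOXB9 from 17 to 22 and HOXD4 from 3 to 6. The range of each of these 4 genes overlapped that of the next gene in the order in both lines, and HOXD4 did not pass the test between the lines. Reads of HOXD4 could also be split with the read-through gene AC009336.2, which shares 80.5% of its exon bases. The rank of HOXD4 and the HOXD sum carry that limit. By paralogue group, the summed FPKM of group 3 was 4.32 ± 0.125 in Huh7 P and 9.76 ± 1.61 in Huh7 LR, the largest ratio (2.26) of the 13 groups, and that of group 8 had the smallest (0.79). By position, the ratio of summed FPKM was 1.59 for the anterior genes, 1.16 for the central genes and 1.15 for the posterior genes, while the median log2 fold changes of the tested genes were 0.40, -0.17 and 0.10. HOXA3 made up most of the anterior rise in summed FPKM, and of the 12 tested central genes 5 rose and 4 fell.

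Genes next to HOXA were also higher in Huh7 LR. Of the 44 tested genes within 5 Mb of the HOXA cluster, HOX genes left out, 31 (70.5%) rose and 3 fell, with a median log2 fold change of 0.56. Over the 215 tested genes of the short arm of chromosome 7 the median was 0.43 and 65.1% rose. Over the 465 genes of the long arm of that chromosome the median was 0.00 and 24.3% rose, and the other 6 arms of the chromosomes with HOX clusters had medians between -0.09 and 0.05. HOXA had a median of 0.84, which is 0.29 above that of its window, and 8 of the 11 HOXA genes lay above the window's median. HOXA13 was exceeded by 4 of the 44 genes, HOXA3 and HOXA6 by 6 each, and HOXA9 by 36. The median of HOXA differed less from its surroundings than from the median of all rows, and no test was made of either difference. What the arm's shift contributes to the values of HOXA was not tested.

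The named neighbours showed the same surroundings gene by gene. Of 7 tested neighbours of HOXA on a list, 6 rose, against 23.3% of all rows. That list is not complete, and HNRNPA2B1, which lies between NFE2L3 and CBX3 and is not on it, fell (log2 fold change -0.42, edgeR adjusted p = 0.000472). HIBADH, an enzyme of valine breakdown, was at 48.8 CPM in Huh7 P and 95.7 CPM in Huh7 LR (log2 fold change 0.97, SE 0.07), NFE2L3 had a log2 fold change of 0.92 and SKAP2 of 0.77, and JAZF1 was called higher at 2.21 (edgeR adjusted p = 6.51e-05). CBX3 did not pass, at -0.10. The other clusters lay in windows with medians near that of all rows, -0.03 for HOXB, 0.05 for HOXC and -0.13 for HOXD. In the HOXD window 41.3% of 46 genes fell, and of 6 tested neighbours 5 fell, among them HNRNPA3 at -0.82 and MTX2 at -0.49. The negative values of HOXB7, HOXB8, HOXB9 and HOXC5 were thus not shared by the medians of their windows.

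**Figure D4:**
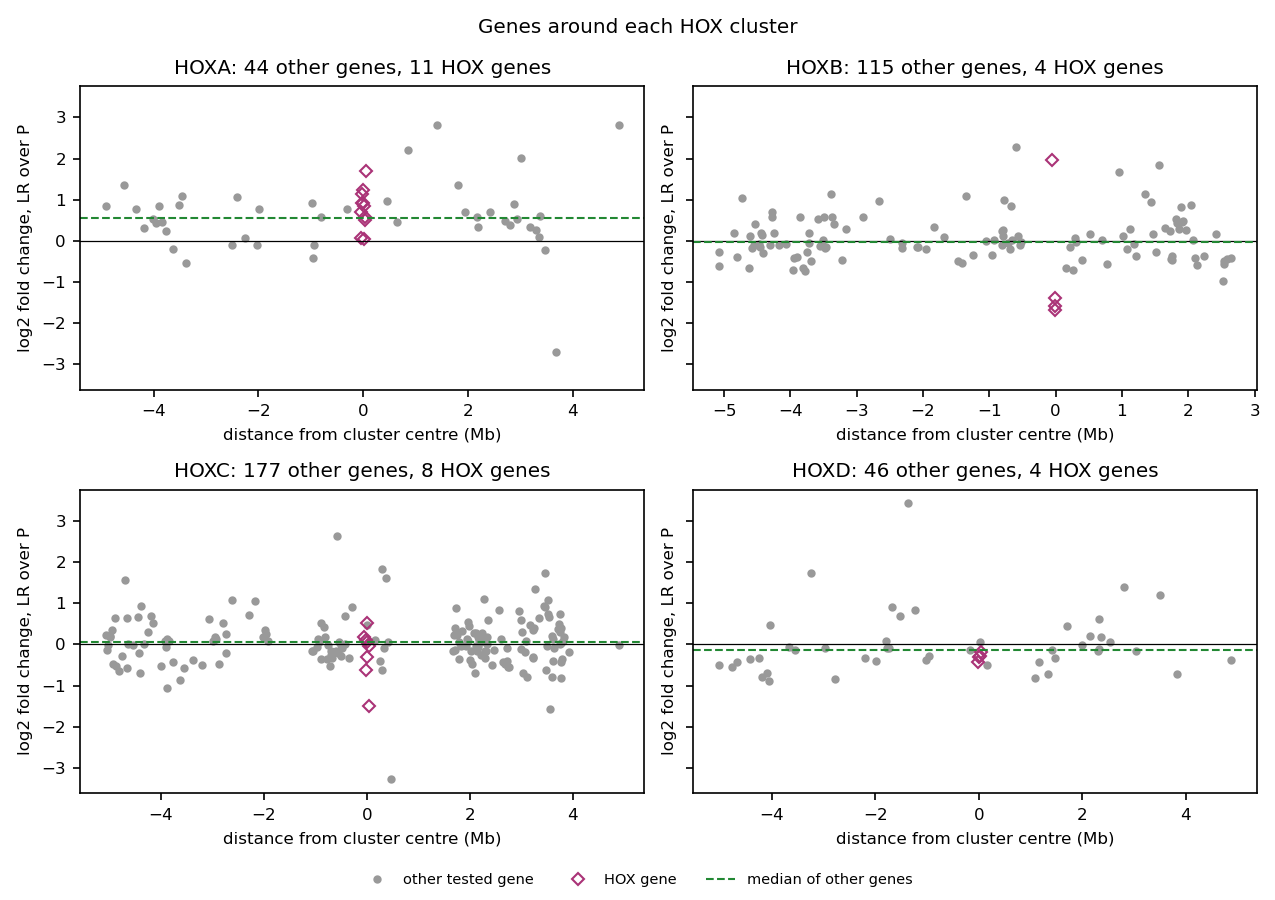
Log2 fold change (Huh7 LR over Huh7 P) of the tested genes within 5 Mb of each HOX cluster against their distance from the cluster's centre. Diamonds are HOX genes, grey points other genes, and the dashed line the median of the other genes. That line lies at 0.56 for HOXA and between -0.13 and 0.05 for the others.

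Genes that act with or upon the HOX clusters were read from lists, whose counts are given beside those of all rows (23.3% higher and 22.4% lower). Of 9 tested TALE cofactors 2 rose and 2 fell, with a median log2 fold change of -0.04. TGIF1 was higher at 0.25, MEIS2 was lower (-0.50, edgeR adjusted p = 0.0011) and PBX3 was lower at -0.22. Of 33 Polycomb genes 6 rose and 11 fell (median -0.06). PHC1, a subunit of the repressive complex that compacts chromatin, was called higher at 2.02, with PCGF5 at 0.90, CBX6 at 0.77 and CBX7 at 0.73 also higher. EZH2, the methyltransferase that marks histone H3 at lysine for silencing, was outside the 4 largest changes and is named after its value was seen (138 CPM in Huh7 P and 85.7 in Huh7 LR, log2 fold change -0.69, edgeR adjusted p = 7.09e-05).

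Of 22 Trithorax genes and demethylases of the Polycomb mark, 2 rose and 7 fell (median -0.07). KDM6B, which removes that mark, was higher (0.94, edgeR adjusted p = 9.88e-06), as was KMT2D at 0.34, while PSIP1 and PAXIP1 were lower at -0.42 and -0.34. Of 17 tested genes of the retinoic acid pathway 8 rose and 2 fell, with a median of 0.25. ALDH1A2, which makes retinoic acid, was called higher (0.398 CPM in Huh7 P, 5.12 in Huh7 LR, log2 fold change 3.69), whereas ALDH1A1, another enzyme that makes it, fell from 4950 to 3530 CPM (-0.49, edgeR adjusted p = 0.000135) and is named after its value was seen. CYP26B1, which degrades it, was called lower (23.0 and 3.95 CPM, -2.54). RBP4 and DHRS3 were higher at 0.58 and 0.56. Of 15 tested homeobox genes of the same class outside the clusters 6 rose and 2 fell, with a median of 0.36. DLX4 was called higher at 1.15, while TLX1 was called lower at -1.96 and DLX1 was lower at -0.88. The part of any of these genes in the HOX values was not tested.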

How the data were processed

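RNA-seq of 3 Huh7 P and 3 Huh7 LR samples was re-analysed from the table that the authors deposited, which holds, per gene and library, a read count (not normalized) and an FPKM value. Per the labels, the libraries were made with a poly(A) module and the NEBNext Ultra kit. The submitters' processing notes name TopHat2, Cufflinks, DESeq and the mouse build mm10, with no roles or versions, and the labels' extraction text describes an insect, whereas all 19974 annotated identifiers are human genes of GENCODE release 29, from which coordinates (GRCh38), exon overlaps and arms were taken. Each chromosome with a HOX cluster was split into arms at its widest stretch without an annotated gene. A further 34 lines of the table name no gene and were left out, and unannotated loci took 2.86% to 3.35% of counts. The HOX members and all lists were chosen with earlier results of these data known.

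Counts were fitted in R 4.3.3 with edgeR 4.0.16 (filterByExpr, minimum count 10 and minimum total 15; TMM factors 0.977 to 1.03; quasi-likelihood test; Benjamini-Hochberg adjustment over 17531 rows). The standard error was taken as the size of the log2 fold change over the square root of F. CPM values were scaled by TMM, and FPKM values are the authors' own. HOX genes with at least 0.5 FPKM in a line or an adjusted p under 0.05 are given by value, and from each list up to 4 genes under 0.05 with the largest change, but a few of these genes are not reported here. Alternatives were DESeq2 1.42.0 (size factors and Wald test), a replicate block, no filter, at least 10 counts in each library, limma 3.58.1 on log2(FPKM + 0.1) and log2(FPKM + 1), summed exon-sharing genes, another threshold and each library left out. Adding the read-through counts was chosen after seeing the data. The fits were tested on simulated data.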

Additional observations from a re-analysis of the deposited data

How the results depend on the processing

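The number of HOX genes that rose was 11 in each fit with a library left out. It was 10 or 11 otherwise, except in the exon-sharing sums, which gave 16 of 29 genes tested. Those 16 include HOXB4, with 0 counts, and HOXB6, with at most 2, because each gene takes the value of its whole group. The limma fits tested 22 HOX genes. The number that fell was 5 to 6 with a library left out and 4 to 6 otherwise. The number called higher was 3. It was 2 whichever library was left out and by limma on log2(FPKM + 1), and 4 by limma on log2(FPKM + 0.1) and at an adjusted p under 0.05 with the same fold threshold. The number called lower was 2. It was 1 with exon-sharing genes summed on the same strand or on either strand, 0 by limma on log2(FPKM + 1), 4 at an adjusted p under 0.05 with the same fold threshold, and 1 to 2 with a library left out, where Huh7 P replicate 1 or 3 gave 1. Of 420 single-gene values over 27 genes, 389 kept their direction and side of the threshold, 9 fell below it (HOXB8 in 8, HOXD8 in 1), 6 rose past it (HOXA9 and HOXC9 in 2 each, HOXD4 at -0.41 without Huh7 P replicate 3 and HOXC8 at -0.36 without Huh7 LR replicate 2) and 16 changed sign. All sign changes but those of HOXC5 were of genes that did not pass in the main comparison.

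With exon-sharing genes summed on the same and on either strand, HOXC5 gave 0.04 and 0.03, HOXC4 and HOXC9 each gave 0.35 and 0.34, and HOXA9 gave 0.54 and 0.53, the latter 3 genes now under an adjusted p of 0.05. In these sums a gene takes the value of its whole group. By limma HOXC4 gave 0.02 (log2(FPKM + 0.1)) and 0.01 (log2(FPKM + 1)). HOXD3 gave 0.03 with the read-through counts added, an alternative chosen after seeing the data. With a library left out, HOXA2 ranged from -0.19 to 0.35 (negative without Huh7 P replicate 1 or 3 or Huh7 LR replicate 3), HOXA9 from -0.11 to 0.19 (negative without Huh7 P replicate 2 or Huh7 LR replicate 3), HOXC4 from -0.20 to 0.06 (positive without Huh7 P replicate 1 or 3 or Huh7 LR replicate 1) and HOXC9 from -0.04 to 0.15 (negative without Huh7 P replicate 3). The cause of these changes was not tested.

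Samples with the same replicate number deviated from their group means with correlations of 0.029, 0.031 and 0.032, so the numbers were not taken to pair the samples, although each correlated best with its own number, which is a hint from the data and not from the design. With the replicate block 11 HOX genes rose and 5 fell, 2 were called higher and 2 lower.

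Some genes had few or no reads, and the cause of this was not tested. HOXB8 had at most 20 counts in a library, and 12 of the 39 genes, 6 in HOXB, 5 in HOXD and 1 in HOXC, were not tested.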
